A study of Homo sapiens with 2 samples.

Results

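Stretch- and volume-activated channels and the pannexins were described in A549, a human lung adenocarcinoma cell line with epithelial features, after 4 h of static or stretch culture. The members were a list of 10 gene symbols: PIEZO1, PIEZO2, PANX1, PANX2, PKD1, PKD2, TMEM63A, TMEM63B, TMEM63C and LRRC8A. All probe sets that the platform annotation assigns to these symbols were taken. The annotation names 8 of the 10 genes, with 1 probe set each, among 14884 named genes. PKD2 and LRRC8A are unnamed here and are not analysed. RNA of each culture condition was hybridised to 1 Affymetrix expression array, so each value below is a single measurement and differences could not be tested. By the source names, the static sample was A549 cells in static culture and the stretched sample was A549 cells under stretch. The title of the stretched sample writes the line as A594. The sources used here give neither the device, strength and rhythm of the stretch nor how many cultures went into each RNA. In whole-culture RNA, fewer cells that express a gene and less of its RNA per cell cannot be told apart.

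Mechanically activated ion channels open when tension in the membrane, or force from the cytoskeleton and matrix, changes their shape. PIEZO and TMEM63 proteins pass cations, calcium among them, within milliseconds to seconds of a push or a stretch, while the channel built on LRRC8A passes anions when a cell swells. Pannexin channels release ATP from the cell, which acts on purinergic receptors of the same and of neighbouring cells until ectonucleotidases break it down. In lung epithelium, which stretches with each breath, this route links strain to calcium signals, surfactant release and repair.

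Signals are RMA values on the log2 scale, and differences are stretch minus static. A gene entered the counts when the higher of its values reached 2.52, the median of all values. All 8 measured channel and pannexin genes passed, as did 10981 named genes in all. A background bound of 4.17 was taken as the 95th percentile of the values of 24 measured genes of unrelated tissues; values at or below it are called within the background range. The robust SD of the differences of these 24 genes was 0.24, at a median signal of 2.23 in static culture. For 6 measured reference genes of higher signal it was 0.61, with differences from -0.22 (B2M) to 1.72 (PPIA). The PPIA difference was larger than that of any channel or pannexin gene below. A probe set's signal depends on its own probes, so levels were not ranked between genes.

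On the stretched array as deposited, PIEZO1 and PANX1 were more than 2-fold higher and PANX2 was lower. The stretched PANX2 value lay within the background range, and with the bound in its place PANX2 was 1.79-fold lower. That is not a lower limit, since the bound is a percentile and the background gene OMP read 4.71 and 4.36. The other 5 measured genes differed from the static array by less than 1.5-fold. Counted at 1.5-fold, 2 of 8 were higher, against 27.7% of all genes past the filter, and 1 of 8 was lower, against 8.9%. At 2-fold the same 3 genes were counted on the values as deposited, against 12.3% of all genes higher and 2.5% lower. At 1.5-fold the share higher is close to the background, so that count is no result about these channels. Their median difference was 0.15, and that of all genes past the filter was 0.20, with quartiles at -0.17 and 0.65. The plot of both signals for each gene shows that 3 genes moved apart and 5 stayed within a short span.

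**Figure D1:**
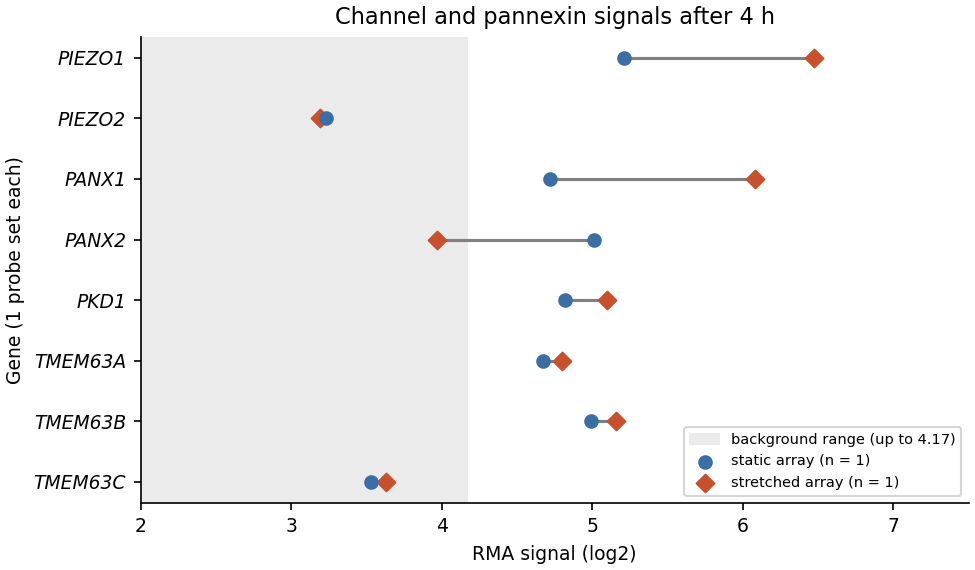
RMA signal (log2) of the 8 measured channel and pannexin genes on the static (circle) and the stretched array (diamond), 1 array each, with the background range up to 4.17 shaded. PIEZO1 and PANX1 lay outside the shaded range on both arrays and higher under stretch, PANX2 moved into it, and PIEZO2 and TMEM63C lay within it on both; positions are not comparable between genes.

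PIEZO1 encodes a very large trimeric cation channel that is gated directly by membrane tension and admits calcium. Its signal (probe set 16829170) was 5.21 in static and 6.47 in stretch culture, higher by 1.26 or 2.40-fold. Both values lay above the background range. Genes of similar signal also tended to be higher: with the genes past the filter cut into 10 equal bins by mean level, the 1099 genes of its bin spanned 5.56 to 6.21. There, the median difference was 0.43, and 39.3% were at least 1.5-fold higher. Of these 1099 genes, 124 (11.3%) had a larger difference than PIEZO1.

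PIEZO2, the channel of touch and position sense in sensory neurons and Merkel cells, did not show this difference. Its signal was 3.23 in static and 3.19 in stretch culture (-0.04), and both values lay within the background range. An absence of change cannot be read from signals in that range. The differences of the PIEZO genes were 1.30 apart on the log2 scale. Of the scalings described below, centring on the median or on reference genes shifts all stretched values alike and cannot change this gap. The gap was 0.91 after quantile normalization and 0.92 after loess.

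PANX1 encodes the widely expressed pannexin, whose channel releases ATP upon stretch and after caspase cleavage of its tail. Its signal (probe set 16730180) was 4.72 under static and 6.08 under stretch culture, a difference of 1.36 or 2.57-fold, with both values above the background range. In its level bin, 5.00 to 5.56, the median difference was 0.49 and 43.1% of 1097 genes were at least 1.5-fold higher. Of these, 100 (9.12%) exceeded PANX1. The differences of PANX1 and PIEZO1 were 0.10 apart, less than the robust SD of the background genes.

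PANX2, a pannexin known mainly from the brain and from intracellular membranes, had the opposite sign. Its signal (probe set 16931636) was 5.01 in static and 3.97 in stretch culture, a difference of -1.04. The stretched value lay within the background range, where low signals are compressed, so the difference is not exact. In its level bin, 3.98 to 4.49, the median difference was 0.30, and only 29 of 1098 genes (2.64%) had a lower difference than PANX2. The transcript that the annotation cites for this probe set is a non-coding RNA variant among the 5 RefSeq transcripts of the gene. PANX3, the third pannexin and best known from skin and cartilage, was on the list of related genes and read 2.77 and 2.17 (-0.60), both within the background range. As deposited, the differences of PANX1 and PANX2 were 2.40 apart on the log2 scale. With the stretched PANX2 value set to the background bound they were 2.20 apart, or 4.59-fold. Centring on the median or on reference genes cannot change the gap as deposited. It was 2.29 after quantile normalization and 2.31 after loess. PANX1 and PANX2 had the highest and the lowest difference of the measured channel and pannexin genes.

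PKD1 encodes polycystin-1, a large membrane receptor that joins the channel polycystin-2 at the primary cilium. It read 4.82 in static and 5.10 in stretch culture, a difference of 0.28. The gene has near-identical pseudogene copies on chromosome 16, whose transcripts the probes may share, so its values are uncertain. In its level bin, 623 of 1098 genes (56.7%) had a larger difference, and the median there was 0.42.

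The TMEM63 genes encode relatives of the plant OSCA channels that open under membrane tension and low osmolarity. TMEM63A went from 4.67 to 4.80, a difference of 0.13. TMEM63B, linked to surfactant secretion by alveolar cells, went from 4.99 to 5.16 (0.17). TMEM63C went from 3.53 to 3.63 (0.10), both within the background range. As deposited, the differences of these 3 paralogs lay within 0.07 of each other. Under the other scalings described below, TMEM63A minus TMEM63C went down to -0.215 and TMEM63B minus TMEM63C to -0.205. TMEM63A and TMEM63B lay below the medians of their level bins, 0.42 and 0.49, and 65.5% and 69.0% of the genes there had larger differences. The plot of difference against level places these genes on the curve of all probe sets or just under it.

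**Figure D2:**
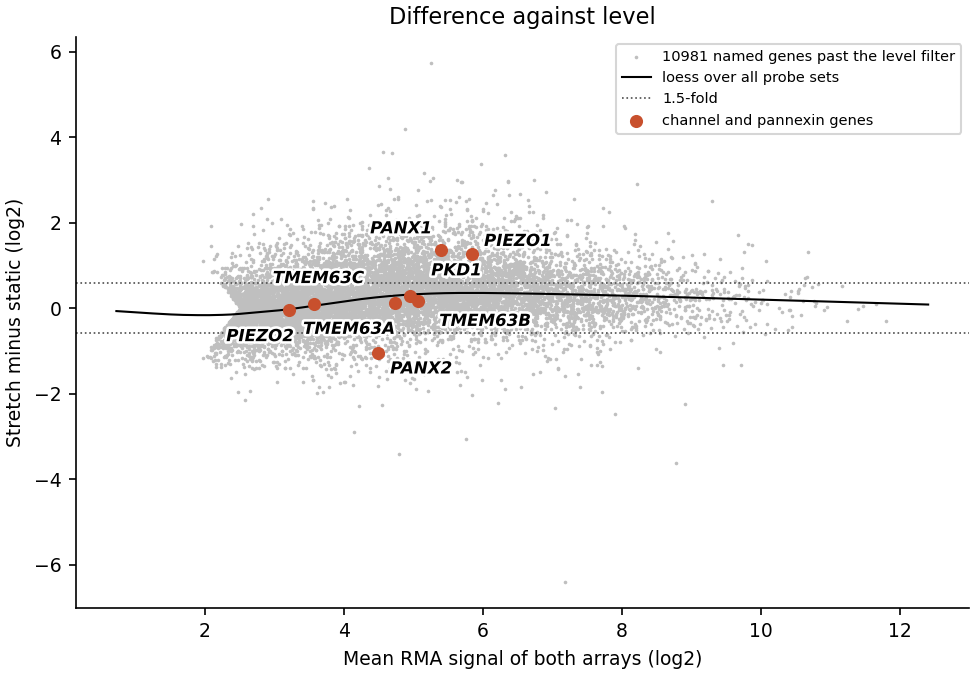
Difference between the arrays (stretch minus static, log2) against the mean signal for 10981 named genes past the level filter (grey), with a loess curve over all probe sets and dotted lines at 1.5-fold; the 8 channel and pannexin genes are in red. PIEZO1 (1.26) and PANX1 (1.36) lie above the upper line, PANX2 (-1.04) below the lower line, and the other 5 between -0.04 and 0.28.

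The arrays did not share a distribution as deposited: the medians of all probe sets were 2.57 for static and 2.47 for stretch. The calls were therefore repeated after median centring, quantile normalization, removal of a loess curve on level, and centring on 6 measured reference genes, which lowers every difference by 0.34. Over these scalings PIEZO1 stood between 0.83 and 1.36 and PANX1 between 0.95 and 1.46, past 1.5-fold in each. PIEZO1 was under 2-fold after quantile normalization (0.83), after loess and after centring on reference genes (0.92). PANX1 was under 2-fold after quantile normalization (0.95). PANX2 stood between -1.38 and -0.94, past 1.5-fold lower in each. After the loess step the values were 0.90 for PIEZO1, 1.01 for PANX1 and -1.30 for PANX2. The signs of the remaining genes were not stable. PKD1 ranged from -0.12 to 0.38, TMEM63A from -0.25 to 0.23, TMEM63B from -0.24 to 0.27, TMEM63C from -0.24 to 0.20 and PIEZO2 from -0.38 to 0.06, all under 1.5-fold. The share of all genes at least 1.5-fold higher depended on the scaling. It was 33.1% (3626 of 10955) after median centring and 1570 of 11199 after centring on reference genes. Of 10981 genes past the filter, 1462 (13.3%) were at least 1.5-fold higher under all scalings and 689 (6.27%) at least 1.5-fold lower. A call that holds under every scaling is thus not particular to PIEZO1, PANX1 and PANX2.

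**Figure D3:**
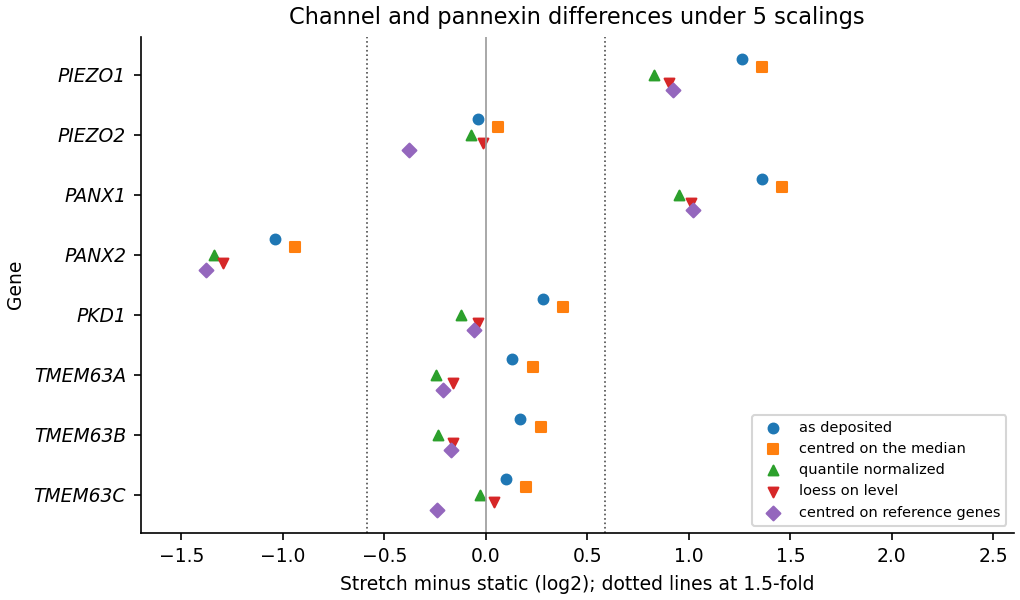
Difference between the arrays (stretch minus static, log2) of each channel and pannexin gene as deposited and under 4 other scalings, with dotted lines at 1.5-fold and 1 array per condition. PIEZO1, PANX1 and PANX2 lie outside the lines under all 5 scalings, while the other 5 genes lie between them and each has values on both sides of 0.

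The promoters of the pair of genes with the similar higher signal are shown for a comparison of the sequence upstream of each. They were taken from RefSeq on GRCh38.p14, 250 bases before to 50 after the start of the gene, written along the gene's strand. Capitals mark every match on either strand to the TEAD motif (GGAATG), the AP-1 motif (TGANTCA) or the GC box (GGGCGG). The PIEZO1 window is chr16:88785171-88785470 on the minus strand and the PANX1 window is chr11:94128591-94128890 on the plus strand.
PIEZO1: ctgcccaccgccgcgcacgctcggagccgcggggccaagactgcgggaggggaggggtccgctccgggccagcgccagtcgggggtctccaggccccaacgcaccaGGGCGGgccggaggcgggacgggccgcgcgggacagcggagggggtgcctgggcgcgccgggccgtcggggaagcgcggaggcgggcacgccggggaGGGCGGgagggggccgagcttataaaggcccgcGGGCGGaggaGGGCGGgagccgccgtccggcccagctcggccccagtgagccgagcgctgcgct
PANX1: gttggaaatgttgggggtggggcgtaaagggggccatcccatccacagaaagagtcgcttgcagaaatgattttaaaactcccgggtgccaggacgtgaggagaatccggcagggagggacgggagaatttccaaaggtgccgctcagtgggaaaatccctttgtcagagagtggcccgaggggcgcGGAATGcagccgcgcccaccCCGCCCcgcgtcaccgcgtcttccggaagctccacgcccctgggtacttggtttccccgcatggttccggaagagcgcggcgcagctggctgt
The PIEZO1 window held 4 GC boxes, no TEAD motif and no AP-1 motif, with a GC content of 81.0%. The PANX1 window held 1 GC box and 1 TEAD motif, which starts 63 bases before the gene start, and a GC content of 62.3%; the median of all 35116 windows was 58.7%. A GC box was in 45.0% of all windows, a TEAD motif in 4928 windows and an AP-1 motif in 7.71%. For the 7 measured genes with an entry, 6 of 8 windows held a GC box, 2 a TEAD motif (PANX1 and 1 of 2 for TMEM63B) and 0 an AP-1 motif. PKD1, with a difference of 0.28, had 9 GC boxes in its window. A match is a description of the sequence and not a bound site.

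The nearest annotated protein-coding gene on either side of each channel gene was read as well. Both protein-coding neighbours of PIEZO1 were also higher, as were many genes of similar signal. In the level bins of CTU2 and CDT1, 39.0% and 43.1% of the genes were at least 1.5-fold higher. CTU2, a tRNA thiolation factor whose annotated span overlaps that of PIEZO1, went from 4.19 to 5.25 (1.06). CDT1, which licenses replication origins, went from 4.42 to 5.62. Whether the PIEZO1 and CTU2 probe sets measure separate transcripts was not tested. Around PANX1, HEPHL1 read 2.47 and 1.96 and was below the filter, and IZUMO1R read 3.01 and 3.06, all within the background range. Beside PANX2, TRABD went from 4.32 to 5.31 (0.99), opposite in sign to PANX2. PKD1 overlaps TSC2 (5.62 and 6.05, a difference of 0.43), and TMEM63B overlaps MRPL14 (4.61 and 5.32, 0.71), so signals of these pairs may be shared too. NGB, next to TMEM63C, encodes neuroglobin and went from 6.83 to 5.15 (-1.68) while TMEM63C stood at 0.10.

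Related genes were taken from a list of 179 symbols in 5 groups: other channels, volume channels with the pannexin and connexin family, purinergic genes, PIEZO partners, and calcium entry with calcineurin. Of these, 71 were measured by name and 56 passed the level filter. Among the 56, 19 (33.9%) were at least 1.5-fold higher, 7 (12.5%) lower and 30 between, against 27.7% and 8.9% of all genes. Since the filter takes the higher value, RCAN1, counted higher, passed only through its stretched value. AQP1, PANX3 and MDFI, counted lower, passed only through their static values. The median of the 56 was 0.19, next to 0.20 for all genes. Under all 5 scalings, 8 of the 56 were at least 1.5-fold higher and 3 lower, against 13.3% and 6.27% of all genes past the filter. The 3 lower ones, AQP1, TMEM150C and MDFI, had both of their values in the background range. The plot of the groups shows their members beside the channels and pannexins.

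**Figure D4:**
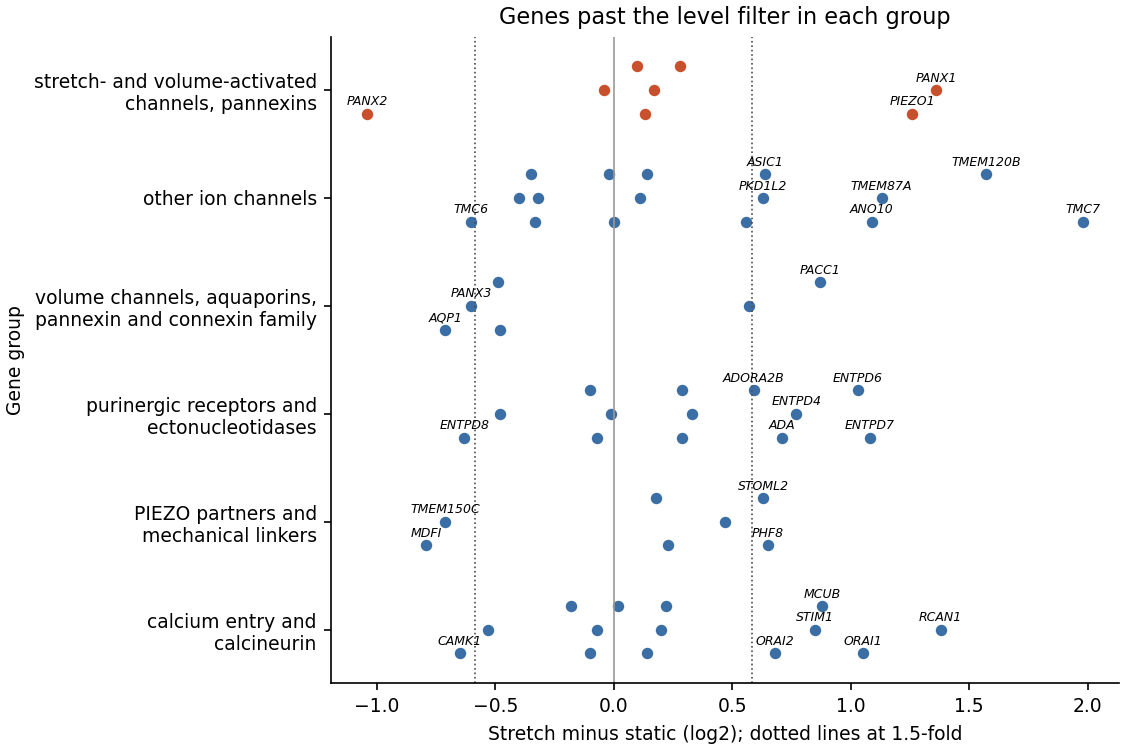
Difference between the arrays (stretch minus static, log2) for each gene past the level filter in 6 groups, 1 array per condition, with dotted lines at 1.5-fold and symbols for the genes past them; the vertical offset within a group only separates points. The channels and pannexins (top, red) spread from -1.04 to 1.36 and the other channels from -0.60 to 1.98.

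Among other ion channels, 6 of 16 genes past the filter were at least 1.5-fold higher and 1 lower, of 22 measured and 50 listed. The median was 0.13. TMC7, a member of the transmembrane channel-like family that includes the hair cell channel subunits, went from 5.00 to 6.98 (1.98), the largest difference of the list. TMEM120B went from 3.31 to 4.88 (1.57), with its static value within the background range. Its paralog TMEM120A, proposed as a mechanosensor under the name TACAN, went from 6.26 to 5.94 (-0.32); it was chosen after its values were seen. TMEM87A, a Golgi protein tied to mechanically evoked currents, went from 6.17 to 7.30 (1.13). At the other end stood TMC6, from 5.31 to 4.71 (-0.60), TMC4 (-0.40) and PKD2L1 (-0.35), a relative of polycystin-2. Both values of TMC4 and of PKD2L1 lay within the background range. TMC6 was at -0.50 after median centring and thus under 1.5-fold there. The TRPV, TRPC, TRPM and TRPA channels and the KCNK and SCNN1 channels of the list are unnamed here.

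For volume channels, aquaporins, pannexins and connexins, only 6 of 34 listed genes were measured, and no connexin and no LRRC8 subunit was among them. PACC1, the proton-activated chloride channel, went from 4.39 to 5.26 (0.87), the only one at least 1.5-fold higher; it was past 1.5-fold in 2 of 5 scalings. AQP3, a water and glycerol channel, stood at 0.57. AQP1 went from 3.16 to 2.45 (-0.71) and AQP5, the water channel of alveolar type I cells, from 3.45 to 2.96 (-0.49), both within the background range. CALHM2, of another family of large-pore ATP channels, went from 4.90 to 4.42 (-0.48). PANX3 (-0.60) and AQP1 were the 2 genes at least 1.5-fold lower, and the median of the 6 was -0.49.

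Among the purinergic genes, 5 of 13 past the filter were at least 1.5-fold higher and 1 lower, of 16 measured and 36 listed, with a median of 0.29. The P2X and P2Y receptors, on which ATP released through PANX1 acts, are unnamed here. Nucleotidases of internal membranes or secreted forms led the group. ENTPD7 went from 4.90 to 5.98 (1.08), ENTPD6 from 5.50 to 6.53 (1.03) and ENTPD4 from 6.47 to 7.24 (0.77). ENTPD8, which breaks down ATP at the cell surface, went from 4.05 to 3.42 (-0.63), within the background range. ADK, the kinase that clears adenosine, went from 7.77 to 7.29 (-0.48). The adenosine receptor ADORA2A read 3.77 and 3.67 (-0.10), both values within the background range, as were those of ADORA1 (-0.07). The receptor ADORA2B went from 7.60 to 8.19 (0.59) and was past 1.5-fold in 2 of 5 scalings. ADORA1 and ADORA2B were chosen after their values were seen. ENTPD4 was past 1.5-fold in 2 of 5 scalings, and ENTPD6 and ENTPD7 in all 5.

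In the group listed as PIEZO partners and mechanical linkers, 2 of 7 genes past the filter were at least 1.5-fold higher and 2 lower. Of the 12 listed, 8 were measured, and the median of the 7 was 0.23. Whether each listed gene acts with PIEZO channels in these cells was not tested. MDFI and MDFIC encode MyoD family inhibitor proteins that bind PIEZO channels as auxiliary subunits and slow their inactivation. MDFIC read 3.70 and 3.88 (0.18) and MDFI 3.04 and 2.25 (-0.79), all within the background range. TMEM150C, which modulates mechanically evoked currents, went from 4.15 to 3.44 (-0.71), also within it. MDFI and TMEM150C were past 1.5-fold lower under all 5 scalings, whereas both higher genes, PHF8 and STOML2, were past it in 2 of 5. The membrane scaffold protein STOM went from 8.16 to 8.63 (0.47) and its mitochondrial relative STOML2 from 8.01 to 8.64 (0.63). PHF8, a histone demethylase, went from 4.12, within the background range, to 4.77 (0.65).

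Genes of calcium entry and calcineurin had 5 of 14 past the filter at least 1.5-fold higher and 1 lower, of 19 measured and 47 listed, with a median of 0.17. RCAN1, a calcineurin regulator that is itself induced by calcium through NFAT, went from 1.99 to 3.37 (1.38), both within the background range. ORAI1, the pore of store-operated calcium entry, went from 4.68 to 5.73 (1.05). STIM1, the store sensor that opens it, went from 4.34 to 5.19 (0.85) and ORAI2 from 3.87, within the background range, to 4.55 (0.68). These were chosen after their values were seen, as were their paralogs STIM2 (0.02) and ORAI3 (0.22). ORAI1 was past 1.5-fold in all 5 scalings, STIM1 and ORAI2 in 2 of 5. MCUB, the dominant-negative subunit of the mitochondrial calcium uniporter, went from 5.67 to 6.55 (0.88), while the pore MCU went from 8.32 to 7.79 (-0.53). CAMK1, the gene counted lower, read 4.33 and 3.68 (-0.65), with its stretched value within the background range. CAMK2D read 5.43 and 5.25 (-0.18).

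The labelled cell type was set against marker genes. Of 12 epithelial or lung adenocarcinoma markers, 8 were measured; KRT18 read 10.29 in static culture and was higher by 0.71 under stretch, KRT8 was at 5.47 under stretch, higher by 0.87, and EPCAM read 5.30 and 4.71. KRT7, a keratin of simple epithelia, went from 5.41 to 7.56 (2.15). KRT19 (3.77 and 3.78) and the alveolar genes SFTPB (3.35 and 2.94), SFTPC (2.77 and 2.87) and NKX2-1 (2.23 and 2.13) lay within the background range. The 3 measured endothelial markers read at most 3.04. Of the fibroblast or smooth muscle markers, DCN read 1.29 and 1.40 and DES 4.62 and 4.39. Of the 3 measured immune markers, LYZ read 2.40 and 1.90, CD14 5.13 and 5.53, and CD68, a lysosomal protein also found outside macrophages, 7.51 and 8.58. KRT7 and CD68 (1.07) were at least 2-fold higher, as were 12.3% of all genes past the filter. Other markers were lower, among them EPCAM (-0.59) and LYZ (-0.50). Any link of the markers to the PIEZO1 and PANX1 differences was not tested.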

How the data were processed

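RNA from 1 static and 1 stretched A549 culture sample was measured on 1 array each. For 53617 probe sets the deposited values are log2 signals, made by the authors with RMA per the submitters' processing notes; software, chip definition and genome build are not given in the sources used here. Their sorted values differ by up to 0.45, so their normalization to each other is unknown. RMA compresses low signals. The number of arrays limits the precision.

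Probe sets were named through the platform annotation, with symbols updated by gene identifier from RefSeq (GRCh38.p14). The annotation named 1 gene for 16098 probe sets and left 37519 unnamed. The probe set with the highest mean stood for a gene; each measured channel or pannexin gene has 1. Differences were counted at 1.5-fold (0.585 on the log2 scale). The 10 level bins were set over the genes past the filter. Loess used a span of 0.3. Of 53 genes of unrelated tissues listed for background, 24 were measured.

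Named are all 10 members and, per related group, all genes past the filter if 6 or fewer, otherwise the 3 highest and 3 lowest. Names outside this rule, neighbouring genes included, were chosen after values were seen. Members and lists were chosen with earlier results of these data known. Counting was checked on simulated data. Python 3.11.15, numpy 2.4.6, pandas 2.3.3 and statsmodels 0.14.6 were used.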

Additional observations from a re-analysis of the deposited data

How the results depend on the processing

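The counts of channel and pannexin genes at least 1.5-fold higher (2) and lower (1) were the same after median centring, quantile normalization, loess and centring on reference genes. They were also the same at a 2-fold threshold on the values as deposited. A level filter at the upper quartile or at the background bound kept 6 of the 8 genes. With these filters, 38.9% and 38.7% of all genes were higher, and 5.64% and 5.69% lower. These filters could not change the counts, since the higher values of PIEZO1 (6.47), PANX1 (6.08) and PANX2 (5.01) lay above both. PANX2 passed them through its static value. Averaging probe sets and dropping the filter could not change them, since each gene has 1 probe set and all 8 pass. The filter at the background bound was chosen after seeing the data. Of the 56 related genes, 19 were higher as deposited; 9 were after quantile normalization (16.6% of all genes), 10 after loess (18.7%), 8 of 57 after centring on reference genes (1570 of 11199 genes) and 8 at 2-fold (12.3%). The 7 lower became 2 with the filter at the upper quartile (5.64% of all genes) or the background bound (5.69%), 3 after median centring (6.35%), 13 after quantile normalization (14.1%), 11 after loess (12.1%), 16 after centring on reference genes (22.6%) and 0 at 2-fold (2.5%). Over all genes past the filter, those higher made up 75.7% of those past 1.5-fold as deposited, 83.9% after median centring, 54.0% after quantile normalization, 60.6% after loess and 38.3% after centring on reference genes; the median difference moved from 0.20 to 0.31, 0.00, 0.05 and -0.16. Why the scalings differ was not tested. No paired analysis was possible because each condition has 1 array, and no replicate could be left out. Signals at or below 4.17 do not carry a direction firmly.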
